A study of Mus musculus with 3 samples.

Results

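The fibroblast-rich spots of mouse heart sections were the 5% of spots, in each section taken separately, with the highest summed level of 3 fibroblast genes. These were Dcn (decorin, a small proteoglycan that binds collagen fibrils; chromosome 10, 97479609 to 97518143), Col1a2 (the alpha 2 chain of collagen I; chromosome 6, 4504814 to 4541544) and Fbln1 (fibulin 1, a glycoprotein of the matrix; chromosome 15, 85205949 to 85286535), with positions from the GENCODE M21 annotation of GRCm38, the build called mm10 in the labels. A spot counted where its UMIs (unique molecular identifiers, each standing for 1 captured transcript) of these genes per 10000 UMIs of the spot reached the 95th percentile of its section. Of 6276 spots with at least 200 detected genes, 315 met this rule, 112 of 2234 in sham, 105 of 2082 in I/R and 98 of 1960 with SBP, and the other 5961 spots served as the comparison. A Visium spot is a small area of tissue and can hold several cells of different types, so these are spots rich in fibroblast transcripts and not fibroblasts. In a spot, fewer fibroblasts and less RNA per fibroblast cannot be told apart.

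The sections came from C57BL/6 mice, supplied at 8 weeks of age, with 1 section for each condition. The sham mouse received vehicle (0.5% sodium carboxymethyl cellulose in water) by gavage for 7 days. Its operation then used needles only, with no ligation of the left anterior descending coronary artery. The I/R (ischemia-reperfusion) mouse received the same vehicle for 7 days, after which the artery was ligated for 30 min and reopened for 24 h. The SBP mouse received Shexiang Baoxin Pill, a compound of traditional Chinese medicine labelled MUSKARDIA, for 7 days and then the same 30 min of ligation and 24 h of reperfusion. Every heart was washed, cut into pieces of 4 to 6 mm3 and sectioned in the frozen state at 10 µm, so the piece of the heart on a slide can differ between conditions along with the treatment. With 1 section per condition there was no replicate, no test was possible between conditions, and spots of a section are not replicates of it. All intervals below are 95% intervals for counting error only.

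Cardiac fibroblasts lie between the muscle fibres, around vessels and in the valves and outer layers of the heart, and they make and turn over the collagen matrix that holds the muscle together. In the uninjured heart they are quiescent and express decorin, gelsolin, complement factors and regulators of Wnt and insulin-like growth factor signals. After infarction they become activated, divide, and produce matricellular proteins such as periostin and tenascin C and, later, contractile proteins and scar collagen. The comparisons below ask which genes accompany the fibroblast markers in each section, and how the levels in those spots differ between sham, I/R and SBP.

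The marker level that chose the spots differed little in threshold between the injured sections and was higher in sham. The 95th percentile was 14.7 marker UMIs per 10000 in sham, 12.1 in I/R and 12.1 with SBP. The spots next to the threshold stood at 14.73 inside and 14.72 outside in sham, 12.08 and 12.07 in I/R, and 12.12 and 12.09 in SBP, so the rule cuts a continuous range. The median over all spots was 4.35 in sham, 3.73 in I/R and 3.53 with SBP. Within the fibroblast-rich spots the median was 18.7, 14.2 and 15.3 in the same order, against 4.14, 3.58 and 3.36 in the other spots. The fibroblast-rich spots held 20.4% of all marker UMIs in sham, 19% in I/R and 20.9% with SBP, and most marker transcripts therefore lay in the other spots. With the sham threshold applied to every section, 2.21% (1.62 to 2.94) of I/R spots and 2.86% (2.17 to 3.69) of SBP spots reached it, against 5.01% (4.15 to 6.00) in sham, which the choice of threshold fixed.

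**Figure D1:**
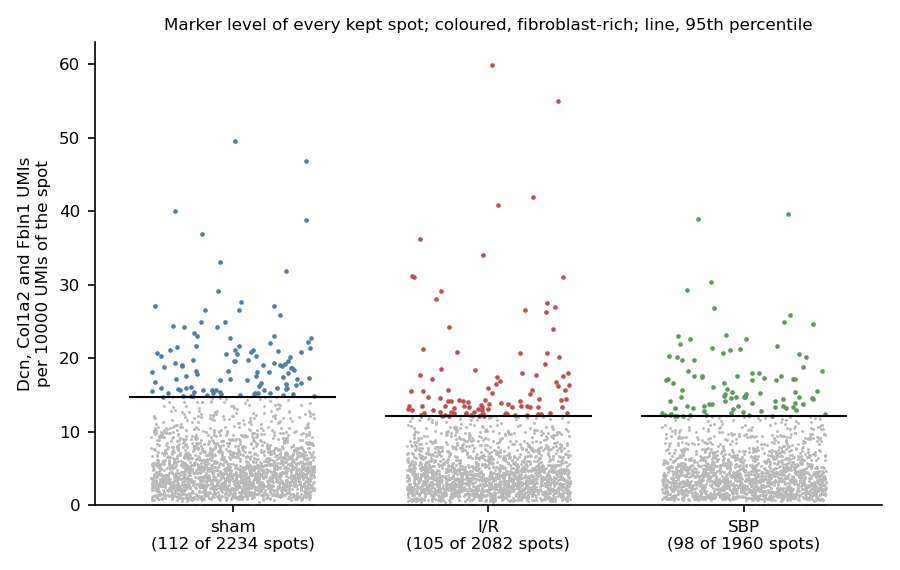
Summed UMIs of Dcn, Col1a2 and Fbln1 per 10000 UMIs of the spot (vertical axis) for every kept spot of the sham, I/R and SBP sections. Grey points are other spots, coloured points are the 112, 105 and 98 fibroblast-rich spots, and the black line is the 95th percentile of each section at 14.7, 12.1 and 12.1. The points run on across the line without a gap, and the highest spot reaches 60.0 in I/R.

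The 3 markers did not contribute alike in the 3 sections. Dcn gave the most marker UMIs in 67 of the 112 fibroblast-rich spots of sham and in 63 of 98 of SBP, but in 39 of 105 of I/R. Col1a2 led in 34 spots of sham, 61 of I/R and 21 of SBP. All 3 markers were detected in 103 fibroblast-rich spots of sham (92.0%), 69 of I/R (65.7%) and 80 of SBP (81.6%). The I/R spots were thus more often led by collagen I and less often held all 3 genes. The median fibroblast-rich spot had 23 marker UMIs in sham, 23 in I/R and 20 with SBP, and the lowest had 4, 1 and 2, so a few shallow spots were chosen on very few transcripts. Levels over the whole group are given as CPM, the UMIs of a gene summed over the spots of the group per 1000000 UMIs of that group. Dcn stood at 943 CPM in the fibroblast-rich spots of sham, 702 in I/R and 886 with SBP, Col1a2 at 781, 926 and 511, and Fbln1 at 334, 140 and 292. When each marker was left out of the choice, it was still higher in the spots chosen by the other 2, with log2 ratios of 1.16, 1.11 and 1.31 for Dcn, 1.13, 1.28 and 0.96 for Col1a2, and 1.49, 0.85 and 1.57 for Fbln1 in sham, I/R and SBP.

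The I/R section was the deepest, with 25118258 UMIs in sham, 30238530 in I/R and 21631280 with SBP. The fibroblast-rich spots held 1456826, 1563956 and 1255652 of these. Their median depth was 12806, 15448 and 12705 UMIs per spot, against 10537, 14653 and 10592.5 in the other spots. Mitochondrial transcripts took 40.5%, 34.3% and 37.0% of UMIs in fibroblast-rich spots and 49.1%, 44.9% and 46.9% in the other spots. This difference moves every other gene upwards, and the median log2 ratio of fibroblast-rich over other spots over all genes tested was 0.33 in sham, 0.32 in I/R and 0.27 with SBP. Without mitochondrial UMIs in the totals it was 0.11, 0.07 and 0.02. Kept barcodes in common, as slides with 1 barcode layout have, numbered 1565 for sham and I/R, 1563 for sham and SBP and 1205 for I/R and SBP. Fibroblast-rich barcodes in common numbered 2, 3 and 6 in the same order.

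The label of these spots was checked against 20 further fibroblast genes. Of those with at least 200 UMIs in the section, 16 of 19 were at least 2-fold higher (log2 ratio of 1 or more, called enriched below) in the fibroblast-rich spots of sham, 17 of 19 in I/R and 15 of 18 with SBP. Gsn, which encodes gelsolin and is abundant in quiescent cardiac fibroblasts, stood at 2456 CPM in fibroblast-rich spots of sham against 723 in other spots, at 1515 against 480 in I/R and at 3135 against 724 with SBP. Pdgfra, the receptor by which fibroblasts are commonly sorted, stood at 37.8 CPM in sham, 105 in I/R and 47.0 with SBP, with log2 ratios over the other spots of 1.5 (1.06 to 1.92), 1.81 (1.56 to 2.05) and 1.07 (0.65 to 1.46), the last being 0.51 without the spots at the top for Nppa. Pi16 and Clec3b, genes of adventitial and universal fibroblasts, had log2 ratios of 1.72, 1.40 and 1.83 and of 1.44, 1.15 and 1.39 in sham, I/R and SBP. The fibroblast genes not used in the choice therefore followed the markers in each section. Cardiomyocyte transcripts were nearly as high as elsewhere, with the 15 sarcomere and muscle metabolism genes of the list summing to 61353 CPM in sham, 43693 in I/R and 60987 with SBP, against 68971, 51862 and 62317 in the other spots. None of these 15 was enriched or at least 2-fold lower (depleted), with medians of -0.17, -0.27 and -0.10.

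Other cell types came with the fibroblast markers in many spots. The share of fibroblast-rich spots that also lay in the top 5% of their section for smooth muscle markers was 24.1% (16.5 to 33.1) in sham, 23.8% (16 to 33.1) in I/R and 18.4% (11.3 to 27.5) with SBP. For Nppa, the atrial natriuretic peptide gene, it was 27.7%, 18.1% and 28.6%, and for endothelial markers 20.5%, 15.2% and 23.5%. For 11 valve and tendon-type matrix genes it was 25%, 16.2% and 22.4%, at low summed levels of 81, 65.9 and 116 CPM in the fibroblast-rich spots. Macrophage markers differed most between sections, with 20.5% (13.5 to 29.2) in sham, 1.90% (0.232 to 6.71) in I/R and 12.2% (6.49 to 20.4) with SBP. The cut for the top 5% was set in each section, for these markers at 24.5 UMIs per 10000 in sham, 68 in I/R and 29.5 with SBP. Their summed level in fibroblast-rich spots was not lower in I/R, at 1702 CPM in sham, 1826 in I/R and 1603 with SBP. In I/R, the 103 remaining spots at the top for macrophage markers were not fibroblast-rich. For cardiomyocyte markers the share was 3.57% (0.982 to 8.89) in sham and 5.10% (1.68 to 11.5) in SBP. It was 0 of 105 in I/R, with an upper bound of 3.45%. In the other spots it was 5.09% in sham, 5.31% in I/R and 4.99% with SBP. The shares in sham and SBP thus cannot be told apart from the 5% that the cut sets. Counting smooth muscle, Nppa, endothelial, macrophage and activated fibroblast genes (the last without smooth muscle genes), 35 of 112 fibroblast-rich spots of sham, 49 of 105 of I/R and 40 of 98 of SBP were at the top for none of the 5, and 37, 18 and 26 for at least 2 of them. In the other spots, 84.5%, 83.1% and 84.2% were at the top for none. Mesothelial markers of the outer surface were low, summing to 31.6, 72.3 and 34.2 CPM over 10 genes in the fibroblast-rich spots. In the other spots they were lower still, at 13.7, 28.9 and 24 CPM. The share of fibroblast-rich spots at the top for them was 10.7% (5.66 to 18) in sham, 13.3% (7.49 to 21.4) in I/R and 6.12% (2.28 to 12.9) with SBP. Over all kept spots of the section, 5 of the 10 genes had no UMI in sham, 1 in I/R and 2 with SBP.

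**Figure D2:**
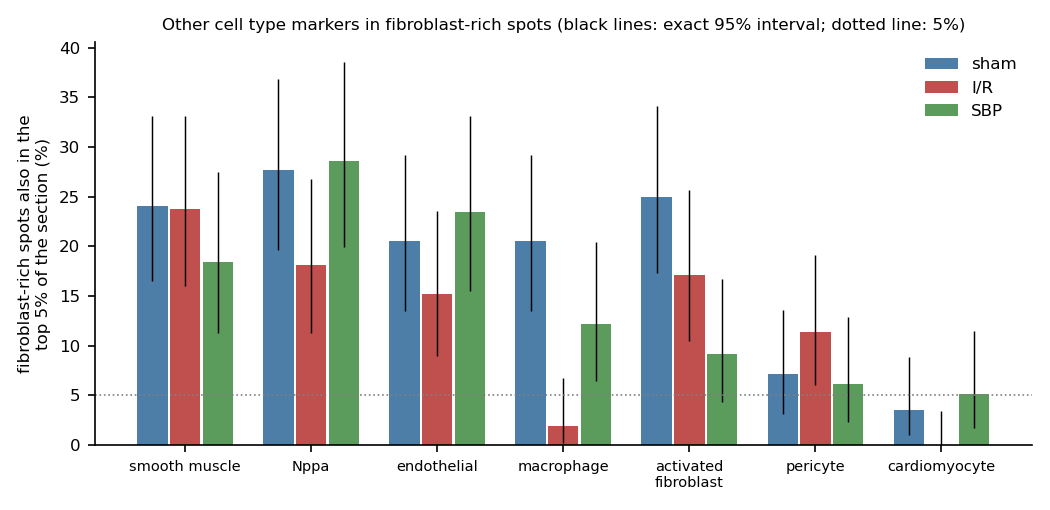
Percentage of fibroblast-rich spots (vertical axis) that also lay in the top 5% of their section for each marker list on the horizontal axis, in sham (blue), I/R (red) and SBP (green), with exact 95% binomial intervals; the dotted line marks 5%. Smooth muscle, Nppa and endothelial bars lie between 15.2% and 28.6% in each section, while the macrophage bar is at 20.5% in sham and 1.90% in I/R. The cut differs between sections, for macrophage markers at 24.5 UMIs per 10000 in sham and 68 in I/R.

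Within each section, genes with at least 200 UMIs were compared between fibroblast-rich and other spots. In sham 568 of 6660 genes (8.53%) were enriched and 19 (0.285%) depleted, in I/R 505 of 8072 (6.26%) and 21 (0.26%), and in SBP 353 of 6364 (5.55%) and 21 (0.33%). These counts follow from the contrast that chose the spots and carry no test. They also rest on the scale, since with TMM factors, which set most genes to no change, 166 were enriched and 124 depleted in sham, 158 and 103 in I/R, and 138 and 100 in SBP. Of the 6195 genes tested in every section, 158 (2.55%) were enriched in all 3, which was 31% of the 509 enriched in sham among them, 57.7% of the 274 in I/R and 48.2% of the 328 with SBP. Among the genes with the highest value in their lowest section were Tagln, Myh11, Prg4, Myl9, Mgp, Col3a1, Eln, Igfbp4, Lum, Igf2, Col18a1, Serpinf1, Col1a1 and Postn. These comprise 3 smooth muscle genes and otherwise mostly genes of secreted matrix and growth factor binding proteins.

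Most collagen genes were enriched in each section. Of the collagen chains tested, 13 of 15 were enriched in sham (median log2 ratio 1.79), 12 of 15 in I/R (1.69) and 10 of 13 in SBP (1.45). Col3a1, the chain of collagen III, stood at 1054 CPM in fibroblast-rich spots of sham, 1212 in I/R and 582 with SBP, against 232, 255 and 146 in the other spots. Its log2 ratios were 2.18 (2.10 to 2.26), 2.25 (2.18 to 2.32) and 1.99 (1.87 to 2.11). Col1a1, the other chain of collagen I, stood at 607, 672 and 332 CPM, with log2 ratios of 2.08 (1.97 to 2.19), 2.40 (2.30 to 2.50) and 1.80 (1.65 to 1.96). SBP had the lowest level of both chains in the fibroblast-rich spots and in the other spots. Col5a1 and Col5a2, which set fibril diameter, stood at 142, 164 and 119 CPM and at 135, 174 and 85.2 CPM. Col4a1, a basement membrane chain made by endothelial and muscle cells as well, was not enriched, at 289, 336 and 312 CPM and log2 ratios of 0.61, 0.33 and 0.53.

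Small proteoglycans and elastic fibre genes were mostly enriched in each section. Lum (lumican, which spaces collagen fibrils) stood at 270 CPM in sham, 283 in I/R and 304 with SBP, with log2 ratios of 1.96, 1.93 and 2.06, and the 3 levels lay within each other's counting error in the comparisons between sections. Mgp (matrix Gla protein, an inhibitor of calcification) stood at 1614, 1683 and 2197 CPM and was lowest in sham. Of the leucine-rich proteoglycans 5 of 6 were enriched in each section, and of the elastic fibre and matrix glycoprotein genes 14 of 16, 13 of 16 and 12 of 15. Eln (elastin) and Mfap4 (a microfibril protein of elastic tissue) had log2 ratios of 1.95 and 2.49 in sham and of 2.61 and 3.31 in I/R. Eln kept log2 ratios of 1.22 in sham, 1.11 in I/R and 0.92 with SBP without the smooth muscle spots, against 2.33 in SBP with them. Prg4 (lubricin, a lubricating proteoglycan) stood at 70.7 CPM in sham, 237 in I/R and 205 with SBP and had log2 ratios of 2.58 (2.24 to 2.91), 2.54 (2.37 to 2.71) and 2.36 (2.15 to 2.56). It was higher in both injured sections in fibroblast-rich and other spots alike.

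Enzymes that process collagen were enriched less often. Of the processing and cross-linking genes 11 of 16 were enriched in sham, 13 of 18 in I/R and 7 of 15 with SBP, with medians of 1.41, 1.33 and 0.96. Pcolce, an enhancer of procollagen cleavage, stood at 254, 201 and 238 CPM, and its log2 ratios were 1.56, 1.37 and 1.49. Serpinh1, the collagen chaperone HSP47, stood at 438, 874 and 493 CPM, with smaller log2 ratios of 0.91, 1.09 and 0.75. Mmp3 (stromelysin 1, a matrix protease) stood apart, at 96.1 CPM in sham, 88.2 in I/R and 25.5 with SBP. It was enriched in sham (2.32, 2.03 to 2.59) and I/R (1.95, 1.68 to 2.22), while in SBP its value was 0.42 (-0.14 to 0.95), from 32 UMIs. Mmp2 (gelatinase A) was enriched in all 3, at 1.40, 1.59 and 1.88.

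Complement genes were enriched in each section and least so in I/R. The list of 13 includes the C1q genes C1qa, C1qb and C1qc, which also stand in the macrophage marker list. The counts are therefore not of fibroblast genes alone. Of the members tested, 7 of 9 were enriched in sham (median 1.96), 6 of 9 in I/R (1.22) and 6 of 8 in SBP (1.62). C3, the central component of the cascade, stood at 443 CPM in fibroblast-rich spots of sham, 158 in I/R and 279 with SBP, with log2 ratios over other spots of 1.96 (1.84 to 2.09), 1.19 (0.99 to 1.38) and 1.82 (1.65 to 1.99). The I/R interval lay below those of the other sections. C4b, a component of the classical pathway, had log2 ratios of 2.55, 1.56 and 1.86. Serping1, the inhibitor of C1, had 1.96, 1.56 and 1.88. Regulators of growth factors and Wnt signals were enriched in 12 of 12, 9 of 11 and 8 of 11 cases. Igfbp4, which binds insulin-like growth factors, was steady at 353, 293 and 310 CPM and log2 ratios of 2.01, 2.06 and 1.93. Its relative Igfbp5 stood at 123 CPM in sham, 38.4 in I/R and 94.8 with SBP, and its log2 ratio was 0.08 (-0.32 to 0.46) in I/R against 1.5 (1.26 to 1.73) in sham and 1.22 (0.93 to 1.5) in SBP.

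Genes of activated fibroblasts were also enriched, with lower median ratios in the injured sections. The members tested differed between sections, so these medians are not over the same genes. Of the members tested, 11 of 12 were enriched in sham (median 1.56), 9 of 15 in I/R (1.43) and 5 of 10 in SBP (1.02), where Spp1 was depleted. Postn (periostin) was nearest to the collagens, at 84.4 CPM in sham, 251 in I/R and 73.3 with SBP, with log2 ratios of 1.79 (1.5 to 2.07), 2.16 (1.99 to 2.32) and 1.81 (1.46 to 2.13), the last being 0.65 without the spots at the top for Nppa. Timp1, an inhibitor of matrix proteases, stood at 204, 867 and 434 CPM, with log2 ratios of 1.77, 1.53 and 1.33, the last being 0.82 without the smooth muscle spots. Fn1 (fibronectin) and Tgfbi (a matrix protein induced by TGF-beta) were enriched in sham at 1.12 and 1.05, but had log2 ratios of 0.54 and 0.60 in I/R and 0.37 and 0.22 in SBP. Their levels in the other spots of I/R were 224 and 149 CPM against 47.2 and 26.9 in sham. The smaller ratios of Fn1 and Tgfbi in I/R thus went with higher levels in the other spots. How these transcripts were distributed among those spots was not tested. Spp1 (osteopontin, made by macrophages as well) was lower in fibroblast-rich spots, at 61.1 against 109 CPM in sham, 311 against 464 in I/R and 58.1 against 153 with SBP. Among TGF-beta ligands, receptors and regulators 5 of 11, 6 of 15 and 3 of 10 were enriched, beside 8.53%, 6.26% and 5.55% of all genes. Tgfb3, a ligand, had 1.56 (1.06 to 2.02) in I/R, or 0.17 without the smooth muscle spots, and Inhba, which encodes the activin A subunit, 1.63 (1.21 to 2.03); both were below 200 UMIs in the other sections, and Inhba had -0.61 in I/R where spots were chosen without mitochondrial UMIs.

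Smooth muscle genes had some of the highest ratios. Of the markers tested, 6 of 7 were enriched in sham, 7 of 8 in I/R and 6 of 7 with SBP. Tagln (transgelin, an actin-binding protein) stood at 176 CPM in sham, 231 in I/R and 105 with SBP, with log2 ratios of 2.76, 3.05 and 2.62, but was detected in 39 of 112, 40 of 105 and 21 of 98 fibroblast-rich spots. Acta2 (smooth muscle actin, also a marker of myofibroblasts) stood at 586, 887 and 346 CPM, with log2 ratios of 1.33 (1.22 to 1.43), 2.79 (2.70 to 2.88) and 2.38 (2.22 to 2.53). The 27, 25 and 18 spots at the top for smooth muscle markers were then left out. They were chosen by these same genes, so lower values were fixed in advance and are given as a description. Without them the log2 ratios of Acta2 were -0.038, -0.31 and -0.34 and those of Tagln -0.73, -0.22 and -0.86. Myh11 (smooth muscle myosin) went from 2.88, 2.81 and 2.54 to -0.76, -0.59 and -0.72. Myl9, a myosin light chain, went from 2.49, 2.60 and 2.28 to -0.28, -0.12 and 0.15, and Cnn1 (calponin) in I/R from 3.24 to 0.51. Col1a1 had log2 ratios of 2.01, 2.0 and 1.70 without those spots, and Col3a1 2.13, 1.90 and 1.95. Col18a1 fell below 2-fold without them in sham and I/R, from 1.81 and 2.45 to 0.49 and 0.40.

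**Figure D3:**
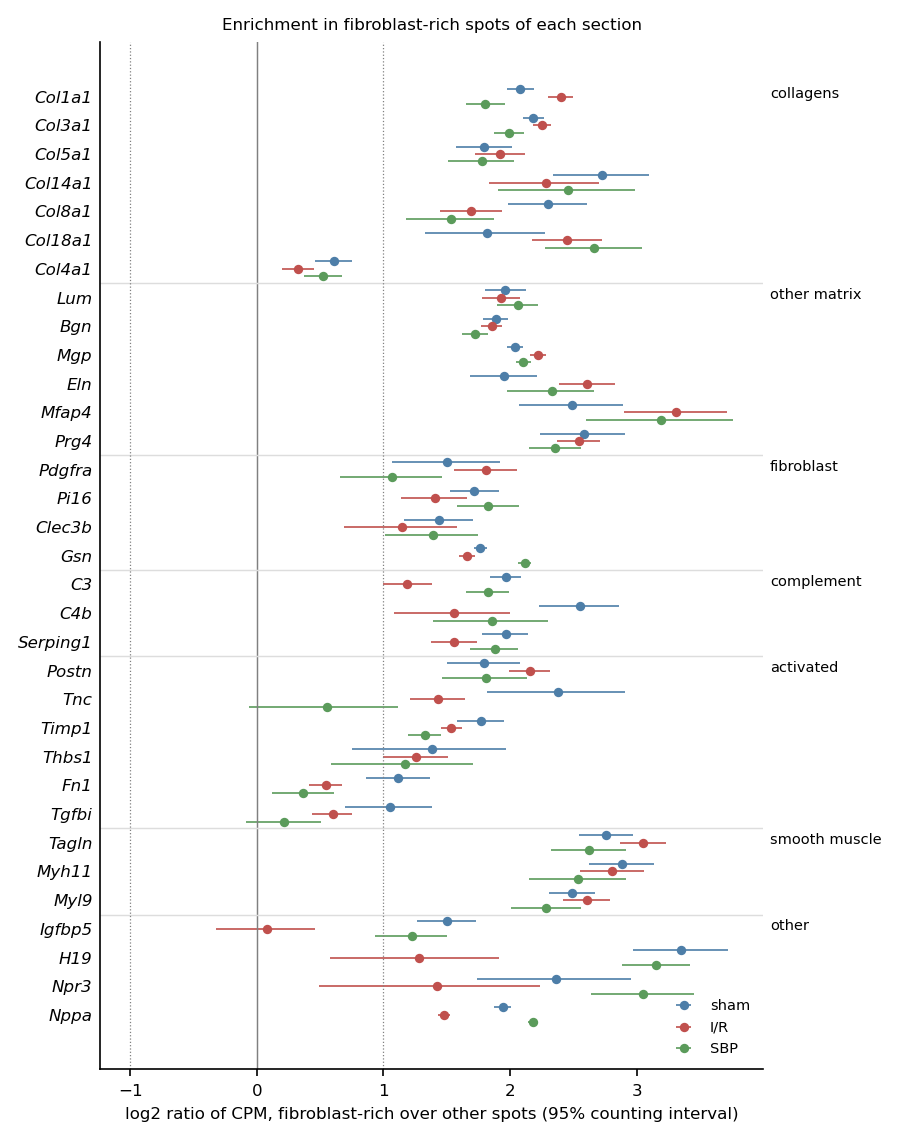
Log2 ratio of CPM in fibroblast-rich over other spots (horizontal axis, with 95% counting intervals) for genes grouped by role, in sham (blue), I/R (red) and SBP (green); dotted lines mark 2-fold. Collagens other than Col4a1 and the other matrix genes lie above 1 in each section, while Igfbp5 is at 0.08 in I/R. Long intervals mark genes with few UMIs, such as Tnc in sham with 39 in fibroblast-rich spots, which was below 200 in the section and not counted.

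Nppa and several endothelial genes were enriched as well. Nppa stood at 1510 CPM in fibroblast-rich spots of sham, 2921 in I/R and 5195 with SBP, against 393, 1049 and 1145 in other spots, with log2 ratios of 1.94, 1.48 and 2.18. Without the 31, 19 and 28 spots at the top for Nppa, which were left out by this very gene, they were -0.95, -0.021 and 0.43. Other atrial genes were too low to be tested, and neither an atrial origin nor another source of these spots was tested. Npr3, the clearance receptor of natriuretic peptides and a marker of endocardium, stood at 22.0, 8.95 and 62.9 CPM, from 32, 14 and 79 UMIs. Only SBP had at least 200 UMIs of it in the section, and its log2 ratio there was 3.05 (2.64 to 3.45), or 2.65 without the spots at the top for Nppa. Plvap (a component of endothelial diaphragms) had log2 ratios of 1.61, 1.37 and 2.56, and Vwf (von Willebrand factor) 1.87, 1.76 and 2.10. Of all endothelial markers 3 of 11 were enriched in sham, 1 of 11 in I/R and 6 of 12 with SBP. Of all genes 8.53%, 6.26% and 5.55% were, so the count in I/R was near that share. H19, an imprinted non-coding RNA, and its neighbour Igf2 were enriched in sham at 3.35 and 1.90 and in SBP at 3.15 and 2.47. Igf2 was enriched in I/R as well, while H19 had fewer than 200 UMIs in that section and was not counted. H19 was found in 18, 13 and 35 fibroblast-rich spots and stood at 68.0, 14.7 and 143 CPM.

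Macrophage markers were enriched in part. Of those tested 7 of 14 were enriched in sham (median 1.04), 2 of 14 in I/R (0.50) and 3 of 12 in SBP (0.86). No neutrophil marker was enriched among 2, 6 and 2 tested, which cannot be told apart from the shares of all genes enriched, 8.53%, 6.26% and 5.55%. The summed level of the macrophage markers in fibroblast-rich spots was 1702 CPM in sham, 1826 in I/R and 1603 with SBP. It was 867, 1509 and 903 CPM in the other spots, so the smaller ratio in I/R went with a higher level elsewhere in the section. Monocyte genes summed to 299, 844 and 414 CPM. Lymphocyte markers summed to 24.0, 10.9 and 12.7 CPM and Schwann cell markers to 12.4, 8.95 and 4.78, and no adipocyte gene was enriched among 2 tested in each section.

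The genes that accompanied the chosen spots depended on the marker. With Dcn left out, spots were chosen by Col1a2 and Fbln1 and shared 68 of 112 spots with the main choice in sham, 69 of 105 in I/R and 58 of 98 with SBP. With Col1a2 left out, spots were chosen by Dcn and Fbln1 and shared 76, 54 and 69. The activated fibroblast genes enriched in I/R numbered 14 without Dcn and 2 without Col1a2, compared with 9 by all 3 markers. In sham they numbered 12 and 5, and in SBP 8 and 2. The counts over all genes moved the same way. In I/R 1364 of 8072 genes were enriched without Dcn and 133 without Col1a2. In sham 863 of 6660 and 342 were, and in SBP 570 of 6364 and 159. Timp1 in I/R had a log2 ratio of 2.05 without Dcn and -0.10 without Col1a2, in sham 2.62 and 0.11, and in SBP 1.81 and -0.12. Postn had 2.48 and 0.82 in I/R, and Tnc (tenascin C, a matricellular protein of wounds) 2.14 and -0.50. Spp1 changed sign in every section, at 1.67 without Dcn and -2.90 without Col1a2 in sham, 0.69 and -2.31 in I/R, and 0.33 and -2.91 in SBP. Counts of activated fibroblast genes were thus higher where Col1a2 rather than Dcn was kept, in sham as well as in the injured sections. Counts over all genes were higher there too.

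Quiescent and complement genes did the opposite or did not depend on the marker. Gsn had log2 ratios of 1.07 without Dcn and 2.13 without Col1a2 in sham, 1.01 and 2.13 in I/R, and 1.60 and 2.17 in SBP. C3 had 0.79 and 1.51 in I/R, and Serping1 1.24 and 1.62. Lum, at 1.90 and 1.46 in I/R, and Mgp, at 2.13 and 1.81, stayed enriched under either choice. Enriched collagen chains, a list without Col1a2, numbered 13 without Dcn and 6 without Col1a2 in I/R, 11 and 2 in SBP, and 12 and 11 in sham. Over all genes the counts were 1364 and 133, 570 and 159, and 863 and 342 in the same order, which moved the same way. Col3a1 was enriched under both in each section, with its lowest value of 1.19 in SBP without Col1a2. Among proliferation genes in I/R, Birc5 and Cdk1, which act in mitosis, had 1.68 and 1.69 without Dcn and -0.88 and -1.32 without Col1a2. The spots that share Col1a2 and those that share Dcn thus differed in their accompanying genes, and what distinguishes them in the tissue was not tested.

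**Figure D4:**
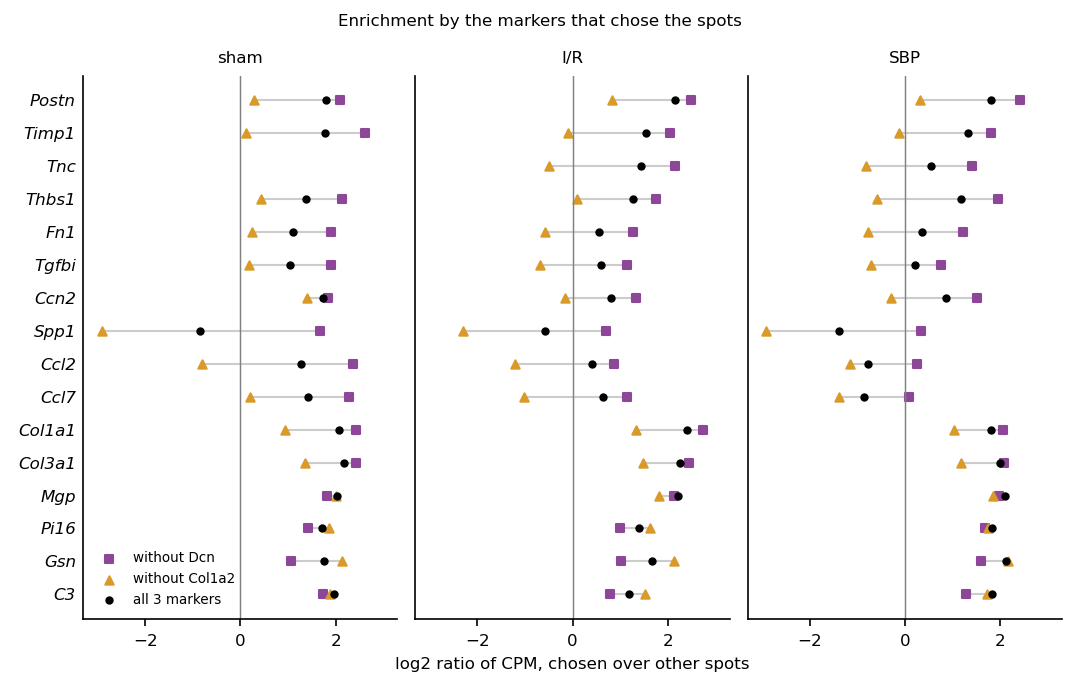
Log2 ratio of CPM in chosen over other spots (horizontal axis) in sham, I/R and SBP for spots chosen by all 3 markers (black circles), without Dcn (purple squares) and without Col1a2 (orange triangles). From Postn down to Ccl7 the squares lie to the right of the triangles, while for Gsn and Pi16 the triangles lie to the right of the squares in each section; Tnc had too few UMIs in sham.

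Between sections, fibroblast-rich spots of I/R were compared with those of sham across 8123 genes with at least 200 UMIs in either section. Most activated fibroblast genes were at least 2-fold higher in I/R, collagen genes were nearly level and 3 of 9 complement genes were at least 2-fold lower. Over all genes, 667 (8.21%) were at least 2-fold higher and 128 (1.58%) at least 2-fold lower in I/R, with a median log2 ratio of 0.20; in the other spots 548 (6.75%) and 19 (0.234%) were, with a median of 0.25. With TMM factors, which lowered each log2 ratio between the fibroblast-rich spots by 0.21, the counts were 404 higher and 275 lower. The I/R section enters this comparison and the next.

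The 19 activated fibroblast genes of the list summed to 1442 CPM in the fibroblast-rich spots of sham and 3671 in those of I/R, and to 587 and 1643 CPM in the other spots. The list holds Acta2, also a smooth muscle gene, and Spp1, made by macrophages as well. The sums are therefore not of fibroblast transcripts alone. Of the 16 with enough UMIs in either section, 4 passed only through I/R and 1 only through sham, which favours a difference. Of the 11 with at least 200 UMIs in both, 7 were at least 2-fold higher in fibroblast-rich spots and 7 in other spots, with none lower in the former, while 4.78% of all 6609 genes of that kind were higher and 1.44% lower in fibroblast-rich spots. Tnc stood at 26.8 CPM in sham and 128 in I/R, a log2 ratio of 2.26 (1.76 to 2.79), against 3.20 in the other spots. Tnc passed the minimum only through I/R, where it is high, and is not among the 11. Timp1 was higher by 2.09 (1.91 to 2.27), Thbs1 (thrombospondin 1, an activator of latent TGF-beta) by 2.28 (1.69 to 2.92) and Fn1 by 1.68 (1.41 to 1.95). Postn was higher by 1.57 (1.27 to 1.87) in fibroblast-rich and 1.21 in other spots. Inhba had 7 UMIs in the fibroblast-rich spots of sham and 60 in those of I/R, and Aldh1a3, an enzyme of retinoic acid synthesis, 4 and 43. Inhba and Aldh1a3 also passed the minimum only through I/R. Sfrp2, a Wnt regulator that passed only through sham, was lower, at 40.5 CPM in sham and 11.5 in I/R. Pdgfra was higher by 1.47 (1.02 to 1.94).

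Collagen genes differed little between sham and I/R. Of 15 chains, 1 was at least 2-fold higher in I/R, Col18a1 at 92.7 against 32.3 CPM, and the median log2 ratio was 0.21, beside 0.20 for all genes. Without the smooth muscle spots the log2 ratio of Col18a1 went from 1.52 to 0.80. Col1a1 had 0.15 (0.02 to 0.28) and Col3a1 0.20 (0.10 to 0.30), and under the other scalings and choices tried these ran from below 0 to above it. Lum had 0.07 (-0.13 to 0.27) and Mgp 0.06 (-0.02 to 0.14). The fibrillar matrix transcripts in fibroblast-rich spots thus differed by less than 2-fold between these 2 sections. Acta2 was higher by 0.60 (0.48 to 0.72) in the fibroblast-rich spots and had a log2 ratio of -0.86 in the others. Without the smooth muscle spots its value in fibroblast-rich spots was -1.13. Acta2 is among the genes that chose those spots, so lower levels of it were fixed in advance and the value is a description.

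All 9 complement genes tested lay below 0 in fibroblast-rich spots, 3 of them by at least 2-fold, with a median of -0.73, while in the other spots 5 of 9 lay below 0 with a median of -0.30. Of all 8123 genes, 2936 lay below 0 in fibroblast-rich and 2170 in other spots. The complement list includes C1q genes that are macrophage markers as well. C3 had a log2 ratio of -1.49 (-1.71 to -1.28) in fibroblast-rich and -0.71 in other spots. C4b had -1.39 (-1.90 to -0.89) and -0.40. Fbln1, a marker used in the choice, had -1.25 (-1.49 to -1.02) and -0.84, while Gsn had -0.70 and -0.59. Clec3b had -1.56 and -1.28, and Pi16 -0.99 and -0.67. Igfbp5 had -1.68 (-2.13 to -1.25) in fibroblast-rich spots against -0.26 in the others. H19, which passed the minimum only through sham, had -2.21 (-2.93 to -1.54) against -0.14. For these genes the value in the fibroblast-rich spots was the lower of the pair, and the difference between the 2 kinds of spots was not tested. Where the spots were chosen without Dcn, without Col1a2 or without Fbln1, C3 had -1.65, -1.15 and -1.68 for I/R over sham. Timp1 had 1.89, 2.07 and 2.08.

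**Figure D5:**
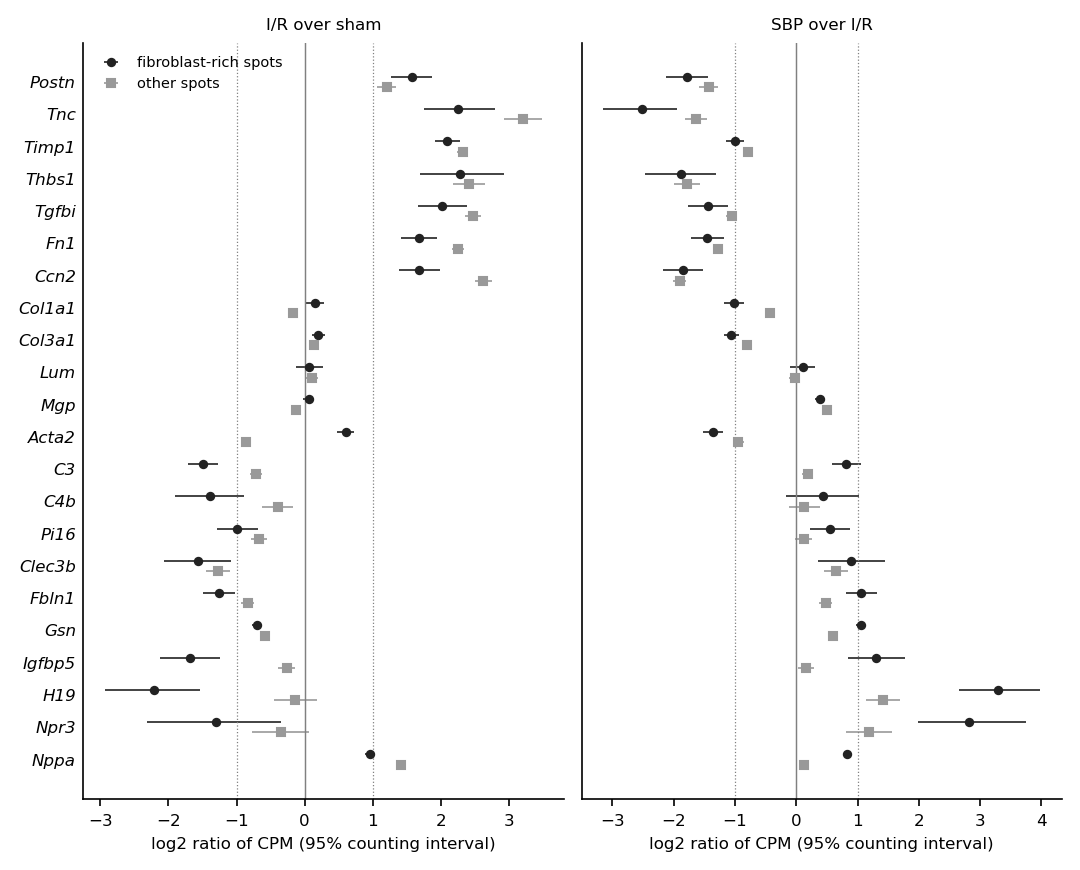
Log2 ratio of CPM between sections (horizontal axes, with 95% counting intervals), I/R over sham on the left and SBP over I/R on the right, for fibroblast-rich spots (black circles) and other spots (grey squares); dotted lines mark 2-fold, and both panels use the I/R section. Postn to Ccn2 lie above 1 on the left and at or below -0.79 on the right, while C3 moves from -1.49 to 0.82 in the fibroblast-rich spots.

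SBP was compared with I/R across 8090 genes. Most activated fibroblast genes were at least 2-fold lower in the fibroblast-rich spots of SBP, while Igf2, Plvap and Vwf were at least 2-fold higher. Npr3 and H19 were also at least 2-fold higher, but passed the minimum only through SBP, where they are high. Of all genes 137 (1.69%) were at least 2-fold higher and 687 (8.49%) lower, with a median log2 ratio of -0.18; in the other spots 12 (0.148%) and 190 (2.35%) were, with a median of -0.16. The activated fibroblast list, with Acta2 and Spp1 included, summed to 1369 CPM in the fibroblast-rich spots of SBP against 3671 in I/R. In the other spots it summed to 688 against 1643. Of the 15 members with enough UMIs in either section, 5 passed only through I/R, where they are high. Of the 10 with at least 200 UMIs in both, 8 were at least 2-fold lower in fibroblast-rich spots and 7 in other spots, while 4.81% of all 6346 genes of that kind were lower in fibroblast-rich spots. Tnc stood at 22.3 CPM in SBP against 128 in I/R, a log2 ratio of -2.52 (-3.15 to -1.94), and Postn at 73.3 against 251, with -1.77 (-2.12 to -1.44). Timp1 had -1.0 (-1.14 to -0.85), Thbs1 -1.87 (-2.47 to -1.31) and Ccn2 (a matricellular protein downstream of TGF-beta) -1.84 (-2.18 to -1.51). TMM factors raised each log2 ratio between these fibroblast-rich spots by 0.16, which left Timp1 within 2-fold. Over sham, Timp1 had 1.09 (0.88 to 1.3), or 0.45 without the smooth muscle spots. Postn and Ccn2 were within counting error of sham, at -0.20 and -0.17, but Postn had -1.28 without the spots at the top for Nppa.

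The collagen chains summed to 2350 CPM in SBP against 3694 in I/R. Of the 13 with at least 200 UMIs in both sections 12 lay below 0 in SBP, 3 of them by at least 2-fold, with a median log2 ratio of -0.51. Of all 6346 genes of that kind, 3817 lay below 0. Col1a1 had -1.02 (-1.18 to -0.85) in fibroblast-rich and -0.42 in other spots, and Col3a1 -1.06 (-1.18 to -0.93) and -0.80. Without the smooth muscle spots both lost the 2-fold call, at -0.73 and -0.75 in fibroblast-rich spots. Both also lost it with every spot kept under TMM factors, which raised each log2 ratio of this comparison by 0.16. Mmp3 had -1.79 (-2.39 to -1.23) and -0.26. Lox (lysyl oxidase, which cross-links collagen and elastin) stood at 24.7 against 72.9 CPM, with -1.56 (-2.18 to -0.98) and -1.16. Lox passed the minimum only through I/R, where it is high. The summed level of smooth muscle genes moved with these values, at 912 CPM in SBP against 1911 in I/R, and their part was not tested. Acta2 had -1.36 (-1.52 to -1.20). Proliferation genes summed to 306 CPM in SBP against 659 in I/R in fibroblast-rich spots and to 193 against 395 in the others. Of the 7 with enough UMIs in either section 4 passed only through I/R, so no count over them is read, and of the 3 that passed in both 1 was at least 2-fold lower. Cdk1 and Birc5 were among the 4 that passed only through I/R, where they are high, and are given as UMIs only. Cdk1 was at 3 UMIs in the fibroblast-rich spots of SBP against 32 in I/R, and Birc5 at 1 against 33.

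Npr3 stood at 62.9 CPM against 8.95 in I/R, a log2 ratio of 2.81 (1.98 to 3.75), and 1.18 in the other spots. Plvap had 1.3 (0.87 to 1.73) and 0.11, and Vwf 1.11 (0.80 to 1.43) and 0.78. Without the spots at the top for Nppa, Plvap and Vwf had 0.85 and 0.76 in fibroblast-rich spots. Of the 11 endothelial markers with at least 200 UMIs in both sections, 9 lay above 0 in fibroblast-rich spots and 4 in other spots. Of all 6346 genes of that kind, 2529 and 2149 did. H19 had 3.29 (2.65 to 3.98) and 1.41, and Igf2 1.63 (1.16 to 2.11) and 0.98. Gsn had 1.05 (0.98 to 1.12) and 0.59, and Igfbp5 1.3 (0.85 to 1.78) and 0.16. Complement genes, C1q genes included, lay above 0 in 8 of 9 cases, none by 2-fold, with C3 at 0.82 (0.58 to 1.06). Of all 8090 genes, 2986 lay above 0 in the fibroblast-rich spots. The 15 cardiomyocyte genes were above 0 in SBP in all cases, with a median of 0.43, and blood genes in 5 of 5, with 0.58; their part in the other differences was not tested.

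Against sham, the fibroblast-rich spots of SBP differed in fewer genes in total, 130 of 6820 (1.91%) at least 2-fold higher and 124 (1.82%) lower. This balance rests on the settings, with 93 higher and 209 lower without mitochondrial UMIs and 195 and 274 at the sham threshold. Myh7, the slow myosin heavy chain that rises in stressed muscle, stood at 1167 CPM against 189, a log2 ratio of 2.63 (2.44 to 2.82), and at 2.57 in the other spots. Plvap was higher by 1.95 (1.44 to 2.48), Nppa by 1.78 (1.71 to 1.85), Prg4 by 1.53 (1.2 to 1.88) and Npr3 by 1.52 (0.91 to 2.16). Npr3 passed the minimum only through SBP. Sfrp2 had -3.08 (-4.59 to -1.88), from 6 UMIs in SBP, and Mmp3 -1.91 (-2.52 to -1.35). Sfrp2 passed the minimum only through sham, where it is high. Lum was within counting error of sham, at 0.17 (-0.04 to 0.38), whereas Col1a1 was lower, at -0.87 (-1.04 to -0.70), and C3 at -0.67 (-0.86 to -0.48). Fbln1 had -0.19 (-0.39 to 0.01), but it is a marker used in the choice, so its level in these spots depends on the rule.

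Chemokine genes separated the fibroblast-rich from the other spots in a different way in each section. Ccl2, which attracts monocytes, stood at 65.2 CPM in fibroblast-rich spots of sham against 27.0 in the others, at 171 against 130 in I/R and at 35.0 against 60.1 in SBP. The log2 ratio was 1.27 (0.94 to 1.58) in sham, 0.40 (0.21 to 0.58) in I/R and -0.78 (-1.25 to -0.34) in SBP. Ccl7, its neighbour with a like role, had 1.42 (1.15 to 1.69), 0.64 (0.49 to 0.80) and -0.86 (-1.27 to -0.47). These values depended on the marker. With Col1a2 left out of the choice, Ccl2 had -0.81 in sham, -1.21 in I/R and -1.16 with SBP, and Ccl7 had 0.20, -1.01 and -1.38. With Dcn left out, Ccl2 had 2.37, 0.86 and 0.25, and Ccl7 2.27, 1.14 and 0.092. Cxcl5, which attracts neutrophils, had 2.25 (1.97 to 2.53), 0.92 (0.70 to 1.14) and 0.14 (-0.18 to 0.45), and -0.32, -1.33 and -2.04 with Col1a2 left out. In sham its 136 UMIs lay in 23 spots, and 35 of them in 1 spot. Of the cytokine and acute phase genes 4 of 9 were enriched in sham, 4 of 14 in I/R and 2 of 11 with SBP. The shares of all genes enriched were 8.53%, 6.26% and 5.55%.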

How the data were processed

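Visium libraries of heart sections from 1 sham, 1 I/R and 1 SBP mouse were used. The authors deposited unnormalized UMI counts per gene and spot over tissue for 32285 mouse genes, made with Space Ranger 1.3.0 and mm10 per the labels, while the study's methods name another version and a human reference. GENCODE M21 held 32235 of the identifiers.

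Spots with fewer than 200 genes were left out (3, 1 and 2). Counts were summed over fibroblast-rich and other spots and divided by the totals of each. Log2 ratios had exact conditional binomial intervals, shares Clopper-Pearson intervals. Genes needed 200 UMIs in the section, or in either section compared. A 2-fold difference was the call, and no test was made. Spot positions, clustering and doublet callers were not used. The 31 gene lists and the members were chosen with earlier results of these data known. Genes were named as members of these lists or by rank, namely the 15 highest and 5 lowest ratios per section, the 15 highest over all sections, and per pair the 8 largest rises and falls and the 5 largest differences in enrichment, of which a part is given. The ratios were tested on simulated data. Python 3.11.15 was used with pandas 2.3.3, numpy 2.4.6, matplotlib 3.10.9 and scipy 1.17.1. Alternatives were other percentiles, marker sets, scalings and filters, thinning of spots to 6500 UMIs, and, added after seeing the data, leaving out smooth muscle or Nppa spots or the top spot of a gene, and counting lists over genes with 200 UMIs in both sections.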

Additional observations from a re-analysis of the deposited data

Results flagged for a closer look

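In the following genes the value had opposite signs in fibroblast-rich and other spots, or in fibroblast-rich over other spots of different sections. With 1 section per condition none of these differences was tested, and no cause was tested.

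For I/R over sham, Acta2 had a log2 ratio of 0.60 in fibroblast-rich and -0.86 in other spots, Eln 0.49 and -0.17, Col1a1 0.15 and -0.17, Serpina3n (a protease inhibitor of the acute phase) -0.37 and 0.18, and Saa3 (an acute phase apolipoprotein) -1.84 and 1.44. The Saa3 value rests on 20 UMIs in the fibroblast-rich spots of sham and 6 in those of I/R. In fibroblast-rich spots without the smooth muscle spots the value was -1.13 for Acta2, -0.28 for Eln and -0.18 for Col1a1. Acta2 is among the genes that chose the smooth muscle spots, so its value there is a description only.

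For SBP over sham, Ccl2 had -0.90 in fibroblast-rich and 1.15 in other spots, Ccl7 -1.02 and 1.26, and Cxcl5 -0.40 and 1.72. Within sections, Ccl2 had 1.27 in sham, 0.40 in I/R and -0.78 with SBP, and Ccl7 had 1.42, 0.64 and -0.86. With Col1a2 left out of the choice, Ccl2 had -0.81 in sham. Of the 44 Ccl2 UMIs in the fibroblast-rich spots of SBP at most 5 lay in 1 spot, and they were found in 27 spots.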

How the results depend on the processing

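The counts of genes moved most with the settings, and the direction of most ratios past 2-fold did not change. Sign changes of smaller ratios were not counted. Of 369 log2 ratios of the genes named, 225 were past 2-fold, and 27 of these changed sign under at least 1 setting. The 27 include smooth muscle genes without the smooth muscle spots and Nppa without the Nppa spots. For these, lower values were fixed in advance, since the same genes chose the spots left out. No paired analysis was possible because there was 1 section per condition. The cause of the changes was not tested, except that a lower minimum of UMIs admits more genes and a smaller group of spots has more counting error. Depth limits genes below about 200 UMIs.

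Counts are given in pairs, enriched and depleted genes in sham, I/R and SBP, then genes enriched in all 3, then genes higher and lower for I/R over sham, SBP over I/R and SBP over sham. At the 90th percentile they were 339 and 4, 231 and 3, 203 and 5, 110 in all 3, then 375 and 71, 54 and 371, 55 and 54. At the 98th percentile they were 1223 and 85, 1281 and 124, 646 and 141, 246 in all 3, then 1079 and 373, 367 and 1398, 311 and 575. With the sham threshold in every section they were 1211 and 114 in I/R, 489 and 85 in SBP, then 1314 and 269, 312 and 1373, 195 and 274. With spots chosen without Dcn they were 863 and 24, 1364 and 66, 570 and 23, 245 in all 3, then 968 and 204, 190 and 969, 170 and 135. Without Col1a2 they were 342 and 11, 133 and 178, 159 and 70, 67 in all 3, then 264 and 198, 192 and 395, 107 and 207. With spots thinned for the choice, 302 genes were enriched in I/R, 392 were higher in I/R than in sham and 413 lower with SBP than in I/R. Without mitochondrial UMIs the counts were 272 and 48, 163 and 136, 141 and 54, 74 in all 3, then 243 and 202, 169 and 397, 93 and 209. With TMM factors they were 166 and 124, 158 and 103, 138 and 100, 62 in all 3, then 404 and 275, 213 and 450, 125 and 127. With median-of-ratios size factors they were 159 and 128, 155 and 107, 137 and 102, 61 in all 3, then 430 and 254, 221 and 445, 107 and 144. These scalings lowered each log2 ratio within sections by 0.37 to 0.47. With equal weight for each spot, 40 genes were depleted in I/R, 1106 were higher in I/R than in sham and 196 with SBP than in sham. With a minimum of 100 UMIs the counts were 1021 and 61, 799 and 69, 663 and 89, 244 in all 3, then 1054 and 278, 290 and 1145, 317 and 376. With 500 UMIs they were 203 and 1, 202 and 0, 133 and 1, 79 in all 3, then 263 and 34, 39 and 225, 23 and 21. Without smooth muscle spots they were 433 and 34, 285 and 47, 293 and 37, 88 in all 3, then 663 and 202, 220 and 703, 202 and 177. Without Nppa spots they were 661 and 43, 539 and 36, 348 and 46, 153 in all 3, then 773 and 186, 161 and 868, 198 and 245.

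The share of I/R spots at the sham threshold was 1.44% without mitochondrial UMIs, 3.46% with thinned spots, 3.55% without Dcn, 1.54% without Col1a2 and 3.31% without Fbln1, each below the share in sham. At the 90th percentile of sham it was 7.01% in I/R and 6.63% in SBP.

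Without Col1a2 in the choice, log2 ratios over other spots became negative for Timp1 in I/R (-0.10) and SBP (-0.12), Tnc in I/R (-0.50), Thbs1 in SBP (-0.59), Ccl2 and Cxcl5 in sham (-0.81 and -0.32), and Ptx3, Birc5 and Cdk1 in I/R (-0.93, -0.88 and -1.32). Saa3 for I/R over sham became 0.45, and Spp1 in SBP 0.33 without Dcn. Without mitochondrial UMIs Thbs1 had -0.063 in I/R and -0.82 in SBP, Inhba -0.61 and Birc5 -0.81 in I/R, and Col18a1 for SBP over sham -0.17. At the 98th percentile Col18a1 had -0.42 and Thbs1 in SBP -0.31. Thbs1 in SBP had -0.12 with the sham threshold, -0.27 without smooth muscle spots and -0.0055 without its top spot, which held 18 of its 32 UMIs. Without smooth muscle spots, values in sham, I/R and SBP were -0.038, -0.31 and -0.34 for Acta2, -0.73, -0.22 and -0.86 for Tagln and -0.76, -0.59 and -0.72 for Myh11, and in sham and I/R -0.28 and -0.12 for Myl9. Without Nppa spots Nppa had -0.95 in sham and -0.021 in I/R. Smooth muscle and Nppa spots were left out by these same genes, so their lower values were fixed in advance.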

Other observations

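Some members named by rank were not described above with their levels. Cilp and Meox1 belong to the activated fibroblast list already counted. Ptx3 belongs to the cytokine and acute phase list, and Cytl1 to the valve and tendon-type list. Serpinf1 stands in a list of proteases and inhibitors. Serpinf1, the anti-angiogenic factor PEDF, stood at 94.0, 106 and 86.0 CPM, with 1.99, 1.88 and 1.81, and was within counting error between sections in the fibroblast-rich spots. Cytl1, a cytokine-like protein of cartilage and valves, stood at 41.2, 30.7 and 70.9 CPM, and its 48 UMIs in I/R lay in 14 spots. Cilp, a matrix protein of cartilage and of fibrosing heart, stood at 39.1, 56.9 and 15.1 CPM and had a log2 ratio of 3.25 (2.86 to 3.62) in I/R, where it was found in 24 of 105 fibroblast-rich spots.

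Ptx3, a pattern recognition protein of the innate response, stood at 25.4 CPM in sham, 24.3 in I/R and 3.19 with SBP, from 37, 38 and 4 UMIs, and 15 of the 37 UMIs of sham lay in 1 spot. Meox1, a transcription factor of activated fibroblasts, stood at 18.5, 26.2 and 5.57 CPM, from 27, 41 and 7 UMIs.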
